A study of Mus musculus with 21 samples.

Results

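The 9 genes described here encode granule proteins, cytosolic proteins and receptors of neutrophils. They were followed across all 21 arrays of a study of sorted mouse medulloblastoma cells. The genes are S100a8, S100a9, Lcn2, Ngp, Camp, Ltf, Mmp9, Csf3r and Cxcr2, taken by symbol from the platform annotation. They have 10 probe sets (Mmp9 has 2) of the 34945 probe sets with a single gene symbol, and they are 9 of 18193 genes. RNA of CD15-sorted cells from cerebellar tumours of Patched mice had been hybridised to Affymetrix mouse expression arrays. Math1-GFP tumours gave 4 arrays of CD15 positive and 5 of CD15 negative cells, and tumours called conventional gave 6 arrays of each fraction. All groups were tumour cells, and no normal tissue, unsorted tumour or sorted neutrophil sample is among them. The titles name Patched for the conventional arrays only, and the Math1-GFP arrays are taken here to be from Patched mice too. The labels give no age, allele, purity or gate, and do not say whether GFP was used in the sort. Nor do they say which arrays come from different animals, and p-values therefore reflect the variation among these arrays, some of which may be technical. The sample descriptions call the 9 Math1-GFP samples conventional as well, and the titles, which name Math1-GFP, were followed. Arrays are named below by the number in their titles. The unnumbered conventional arrays are called array 1.

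CD15, the Lewis X carbohydrate, is carried by some neural progenitors and has also been described on neutrophils. The labels do not say whether the CD15 sort took neutrophils from these mouse tumours. Neutrophils load their granules in waves as they mature in the bone marrow. Primary granule proteins such as myeloperoxidase are made first, then specific granule proteins such as lactoferrin, and gelatinase last. S100a8 and S100a9 form calprotectin, the most abundant cytosolic protein complex of the mature cell, and their transcripts persist in circulating neutrophils. Csf3r receives the growth factor G-CSF, and Cxcr2 guides the cells along CXC chemokines. In the mouse brain neutrophils are rare outside the blood vessels. Lcn2 is also made by reactive astrocytes, and Csf3r and S100a8 by some monocytes.

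S100a8 and S100a9 lie next to each other on chromosome 3, with 0 RefSeq genes wholly between them, and Lcn2 lies on chromosome 2. The windows of 250 bases ahead of their annotated starts are shown because the S100 pair moved together across arrays and Lcn2 did not always follow it. The sequences are from RefSeq, build GRCm38.p6, 5′ to 3′ on the gene's own strand. They are chr3:90668821-90669070 (plus strand), chr3:90695722-90695971 (minus strand) and chr2:32387740-32387989 (minus strand). Capitals mark a match, on either strand, to the TATA box letters TATAAA or to TTNNGCAA (a C/EBP motif; C/EBP factors act in granulocyte maturation).
S100a8: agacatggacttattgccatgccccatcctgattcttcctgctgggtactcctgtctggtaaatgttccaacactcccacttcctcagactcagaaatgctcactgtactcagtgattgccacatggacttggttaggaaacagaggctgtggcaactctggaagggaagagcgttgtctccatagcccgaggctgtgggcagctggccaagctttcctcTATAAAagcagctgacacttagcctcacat
S100a9: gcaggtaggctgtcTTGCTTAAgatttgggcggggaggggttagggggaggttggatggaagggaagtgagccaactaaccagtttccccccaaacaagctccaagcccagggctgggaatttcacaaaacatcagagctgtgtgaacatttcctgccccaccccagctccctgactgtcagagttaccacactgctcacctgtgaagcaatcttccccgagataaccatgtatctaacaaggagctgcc
Lcn2: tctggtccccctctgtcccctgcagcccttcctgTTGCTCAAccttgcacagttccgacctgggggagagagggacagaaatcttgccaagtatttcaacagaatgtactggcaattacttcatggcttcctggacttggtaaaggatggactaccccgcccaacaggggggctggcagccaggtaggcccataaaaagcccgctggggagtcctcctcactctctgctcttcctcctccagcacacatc
The S100a8 window held TATAAA with its first base 30 bases upstream of the start, and 12.4% of 32851 RefSeq windows of the same length held these letters. TTNNGCAA stood 236 bases upstream of S100a9 and 216 upstream of Lcn2. It was also in the windows of Ngp and Ltf, which makes 4 of the 8 genes with a window, against 9.56% of all windows. A kappa B motif was in 0 of the 8 windows and in 1.41% of all. These matches are descriptions of letters and were not tested for binding.

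All 9 genes were dim beside the tumour's own transcripts. The median signal over the 21 arrays was 12.4 for S100a8, 4.05 for S100a9, 28.5 for Lcn2, 22.8 for Csf3r and 3.02 for Cxcr2, where the median of all probe sets on an array was 22.1 to 32.7. The granule neuron precursor genes Zic1, Neurod1 and Atoh1 had median signals of 8223, 4735 and 1034, so that the arrays carry the labelled tumour cell. In the mean over arrays, 6 of the 10 probe sets stood above the 40th percentile of all probe sets. The probe sets of Camp (percentile 17.4), Cxcr2 (14.2), Ltf (30.2) and one of Mmp9 (28.2) stood below it. Camp, Ngp and Cxcr2 were under the array's own median signal on 20 of 21 arrays each, and S100a8 and S100a9 on 15. These are signals of different probes and give no order of transcript amounts. In bulk samples of this kind, fewer cells of a type and less RNA per cell cannot be told apart.

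**Figure D1:**
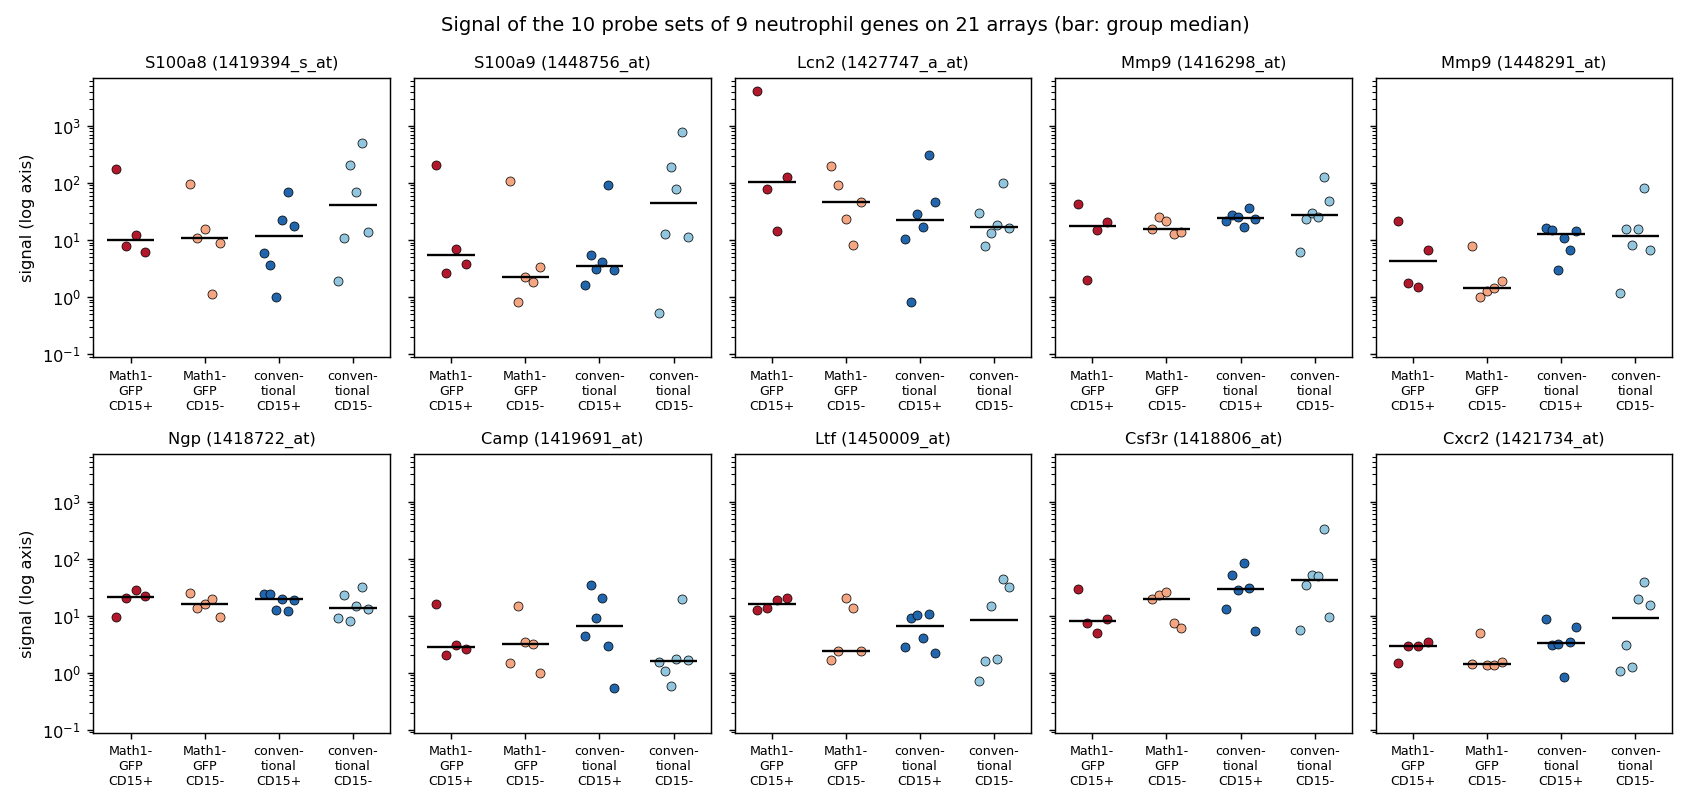
Signal of each of the 10 probe sets (log axis) in the 4 groups, 1 point per array and a bar at the group median. Most points lie under a signal of 50, and the high ones belong to few arrays: S100a8 and S100a9 passed 50 on the same 6 arrays, and Lcn2 reached 4067 on Math1-GFP CD15 positive array 1.

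The calprotectin genes showed the widest range after Lcn2, and it came from 1 high array in each of 3 groups and from 3 in conventional CD15 negative cells. S100a8 had signals of 173.2, 7.91, 12.4 and 6.13 on the Math1-GFP CD15 positive arrays 1, 5, 7 and 9, against 94.6, 10.6, 15.6, 1.14 and 9.01 on the CD15 negative arrays 2, 4, 6, 8 and 10. In each fraction of these tumours, 1 array was high and the groups overlapped. In conventional tumours S100a8 ran between 0.99 and 68.0 with a median of 11.7 in CD15 positive cells, against 1.90 to 502.5 with a median of 40.95 in CD15 negative cells. S100a9, its partner, gave 208.1, 2.66, 7.04 and 3.84 on the Math1-GFP CD15 positive arrays, against 109.0, 0.82, 2.23, 1.82 and 3.39 on the CD15 negative ones. In conventional tumours it ran between 1.64 and 91.2 with a median of 3.55 in CD15 positive cells, against 0.52 to 774.3 with a median of 44.85 in CD15 negative cells. Both genes passed a signal of 50 on the same 6 arrays: Math1-GFP CD15 positive 1, Math1-GFP CD15 negative 2, conventional CD15 positive 5 and conventional CD15 negative 3, 4 and 5. On the other 15 arrays both were dim. Such arrays thus occurred in every group, on either side of the CD15 sort. Conventional CD15 positive 5 and conventional CD15 negative 5 share a title number and may come from the same tumour.

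Lcn2, the iron-carrier binding protein of specific granules, had the highest value of any of the 9 genes, and in another place. It gave 4067, 77.9, 14.3 and 127.9 on the Math1-GFP CD15 positive arrays, against 198.1, 92.5, 23.4, 8.07 and 46.4 on the CD15 negative arrays. The first array was the only one of the 21 above 307.7. In conventional tumours Lcn2 ran between 0.80 and 307.7 with a median of 22.7 in CD15 positive cells, against 7.90 to 101.2 with a median of 17.1 in CD15 negative cells. The array highest for S100a9 (774.3, conventional CD15 negative 5) had an Lcn2 signal of 101.2. Conventional CD15 negative arrays 3 and 4, with S100a9 at 187.8 and 77.2, had Lcn2 at 13.4 and 17.9.

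The other specific granule genes stayed low on all arrays. Ngp, a granule protein of the cathelicidin family, ran between 9.65 and 28.6 in CD15 positive and between 9.56 and 24.85 in CD15 negative cells of Math1-GFP tumours, against ranges of 12.2 to 23.7 and 7.99 to 31.85 in conventional tumours. Its groups overlapped throughout. Camp, the cathelicidin antimicrobial peptide, reached 34.0 on conventional CD15 positive array 2 and was at 3.12 or less in the median of both Math1-GFP groups. Ltf, lactoferrin, ran between 12.6 and 20.0 in Math1-GFP CD15 positive cells, against 1.66 to 20.6 in Math1-GFP CD15 negative cells. In conventional tumours Ltf ran between 2.17 and 10.9 in CD15 positive and between 0.71 and 44.1 in CD15 negative cells. The 4 Math1-GFP CD15 positive arrays were therefore all above the 6 conventional CD15 positive arrays for Ltf, all at dim levels.

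Mmp9, the gelatinase of tertiary granules, had 2 probe sets. The brighter ran between 2.02 and 43.4 in CD15 positive and between 12.7 and 24.9 in CD15 negative cells of Math1-GFP tumours, against 16.55 to 35.6 and 6.13 to 127.5 in conventional tumours. The dimmer ran between 1.47 and 21.9 and between 1.00 and 7.80 in the Math1-GFP fractions, against 2.99 to 16.3 and 1.19 to 80.2 in the conventional ones, CD15 positive first in each pair. Both had their highest signal on conventional CD15 negative array 5.

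The receptor Csf3r gave 29.3, 7.28, 5.04 and 8.55 on the Math1-GFP CD15 positive arrays, against 19.6, 22.8, 25.7, 7.51 and 6.19 on the CD15 negative arrays. In conventional tumours it ran between 5.33 and 84.6 with a median of 29.05 in CD15 positive cells, against 5.49 to 330.5 with a median of 41.8 in CD15 negative cells. Its second highest array, conventional CD15 positive 4 (84.6), had S100a9 at 4.05. Cxcr2, the chemokine receptor, ran between 1.45 and 3.43 in CD15 positive and between 1.36 and 5.015 in CD15 negative cells of Math1-GFP tumours, against 0.85 to 8.81 and 1.06 to 38.5 in conventional tumours. It was above 10 on 3 arrays only, the conventional CD15 negative arrays 4, 5 and 6.

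In the comparison of CD15 positive with CD15 negative cells of conventional tumours, no probe set of the 9 genes passed an adjusted p of 0.05 in the limma fit across all probe sets. That is 0 of 10, beside 3.46% of all probe sets called (1210), and 0 of 10 had an unadjusted p under 0.05, beside 15.9% of all. Of the 10 log2 fold changes, 3 were positive and 7 negative, with a median of -0.25, where the median of all probe sets was -0.0125. Fold changes here and below are differences of log2(signal + 32), which understates those of dim genes. S100a9 had the lowest, -1.24 ± 0.65 (SE; 95% interval -2.59 to 0.10; limma adjusted p = 0.36). S100a8 was at -1.02 ± 0.56 (interval -2.19 to 0.15; limma adjusted p = 0.40), and Cxcr2 at -0.26 ± 0.13 (limma adjusted p = 0.35). Lcn2 was at 0.27 ± 0.75 (limma adjusted p = 0.92), with an interval of -1.30 to 1.83 that covers large differences either way.

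Both conventional groups carry the title numbers 2 to 6, and arrays of a number were taken as pairs. S100a9 was lower in the CD15 positive array in 5 of 5 pairs, by log2 differences of -2.71 to -0.25. Numbers 2 (5.35 and 12.45, CD15 positive first) and 6 (2.98 and 11.25) were dim on both sides. The unnumbered arrays, at 1.64 and 0.52, went the other way and are neither among the 5 pairs nor in the blocked fit below. A share of 11.2% of all probe sets was lower in all 5 pairs. S100a8 and both Mmp9 probe sets were lower in 4 of 5, so that 4 of 10 probe sets were lower in at least 4 pairs, beside 29.1% of all. Cxcr2, Csf3r and Ltf were lower in 3 of 5, which makes 7 of 10 in at least 3 pairs, beside 53.3% of all. Lcn2 and Camp were lower in 2 of 5 and Ngp in 1 of 5. In the fit blocked on the number, S100a9 was at -1.50 (limma adjusted p = 0.14), S100a8 at -1.26 (adjusted p = 0.18) and Cxcr2 at -0.37 (adjusted p = 0.076), and 0 of 10 probe sets passed. Conventional CD15 negative array 5 weighed most: without it, S100a9 was at -0.65, S100a8 at -0.53, Cxcr2 at -0.12 and the brighter Mmp9 probe set at -0.01, and Csf3r turned to 0.10.

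**Figure D2:**
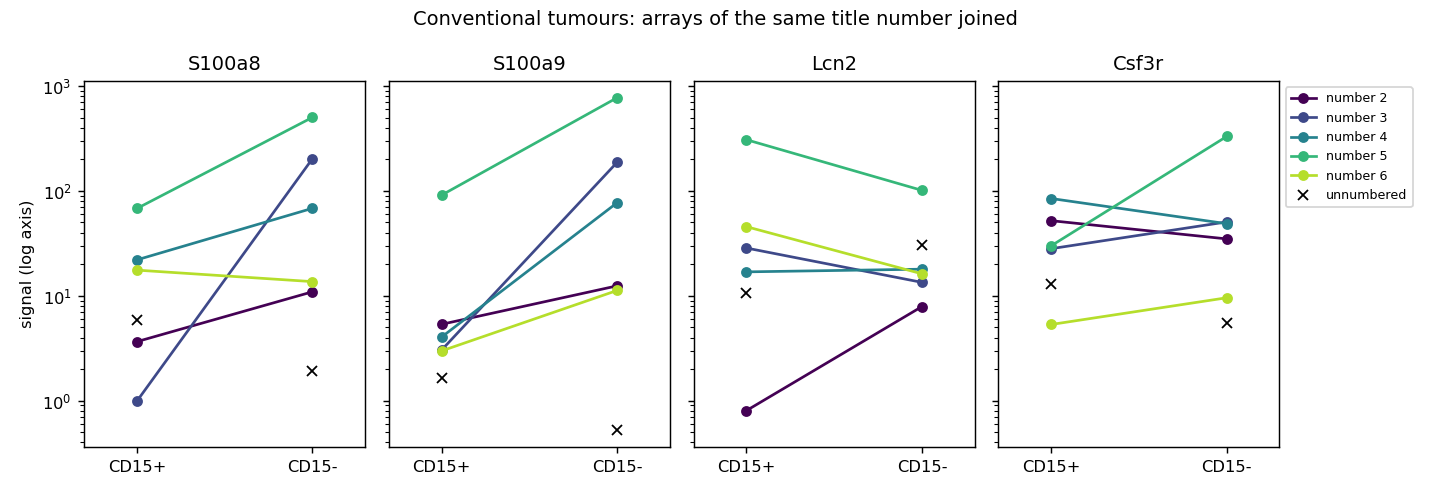
Signal (log axis) of 4 genes in conventional tumours, CD15 positive left and CD15 negative right, with lines joining arrays of the same title number (2 to 6) and crosses for the unnumbered arrays. For S100a9 all 5 lines climb to the CD15 negative side, while those for Lcn2 and Csf3r run both ways. The S100a9 lines of numbers 2 and 6 join dim signals, of 12.45 or less.

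In Math1-GFP tumours, 0 of 10 probe sets of these genes passed in the same comparison, beside 0% of all probe sets, and 0 of 10 had an unadjusted p under 0.05, beside 6.24% of all (2180). The log2 fold changes were positive for 9 probe sets and negative for Csf3r, with a median of 0.14 (all probe sets, -0.0021). Lcn2 had the highest, 1.47 ± 0.87 (interval -0.35 to 3.28; limma adjusted p = 0.90). It was 0.10 without Math1-GFP CD15 positive array 1. S100a8 and S100a9, at 0.26 ± 0.66 and 0.37 ± 0.75, were at -0.33 and -0.31 without that array.

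The difference of the CD15 differences between Math1-GFP and conventional tumours was tested as an interaction. It passed for 0 of 10 probe sets of these genes and for 0% of all, with 0 of 10 and 2.67% (933) at an unadjusted p under 0.05. The interaction was 1.61 ± 0.99 for S100a9, 1.28 ± 0.86 for S100a8, 1.20 ± 1.15 for Lcn2 and 0.52 ± 0.27 for Ltf (SE). Without Math1-GFP CD15 positive array 1 it was 0.93 for S100a9, 0.69 for S100a8 and -0.16 for Lcn2. Without conventional CD15 negative array 5 it was 1.02 for S100a9 and 0.79 for S100a8, and without Math1-GFP CD15 positive array 7 it was 1.99 for Lcn2. All 10 limma adjusted p-values were 1.00. The interval of the interaction was -0.44 to 3.67 for S100a9 and -0.51 to 3.07 for S100a8. Both intervals include 0 and also large differences. The test therefore cannot decide whether the opposite signs of the S100 pair in the 2 models exceed the spread between arrays.

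**Figure D3:**
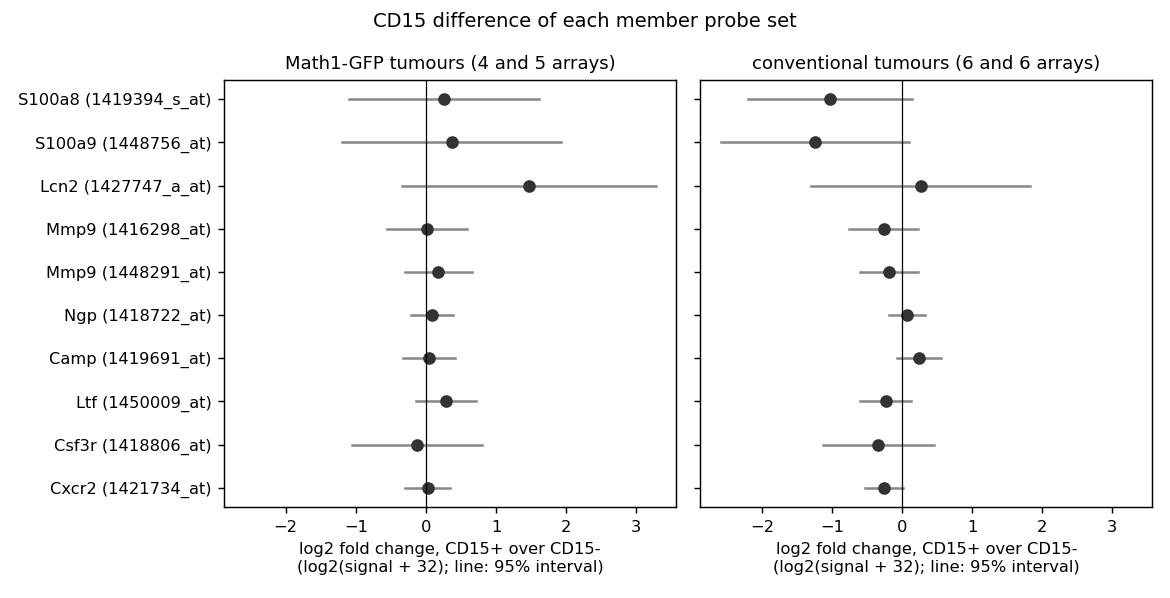
Log2 fold change of each probe set, CD15 positive over CD15 negative, in Math1-GFP (left) and conventional (right) tumours, with the 95% interval of the limma fit as a line. Every interval includes 0, and those of S100a8, S100a9 and Lcn2 are the widest.

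Between the models, 0 of 10 probe sets passed in CD15 positive cells, beside 16.1% of all probe sets (5618), and 0 of 10 in CD15 negative cells, beside 14.6% (5086). The suffix that separates the models in the titles (le2 for Math1-GFP, le1 for conventional) cannot be told apart from the model. At an unadjusted p under 0.05 there was 1 of 10 probe sets in CD15 positive cells, beside 28.6% of all. It was Lcn2, at 1.80 ± 0.84 for Math1-GFP over conventional (limma adjusted p = 0.16), and it was 0.43 without Math1-GFP CD15 positive array 1. In CD15 negative cells there were 2 of 10, beside 27.1% of all: Cxcr2 at -0.35 ± 0.14 (limma adjusted p = 0.10) and the dimmer Mmp9 probe set at -0.49 ± 0.21 (limma adjusted p = 0.13). S100a9 was at -1.19 ± 0.68 there (limma adjusted p = 0.27). Without conventional CD15 negative array 5, these 3 values were -0.20 for Cxcr2, -0.24 for Mmp9 and -0.60 for S100a9. Ltf was the only gene whose groups did not overlap, in CD15 positive cells, at 0.33 ± 0.20 (limma adjusted p = 0.29), where 12.3% of all probe sets did not overlap. In CD15 negative cells and in the CD15 comparisons of Math1-GFP and conventional tumours, 0 of 10 were without overlap, beside 9.55%, 3.68% and 2.45% of all. Beside these model differences, the 12 microglia and macrophage genes had median log2 differences of -1.49 in CD15 positive cells (3 of 12 lower, among them C1qa at -2.36, limma adjusted p = 0.025) and -1.08 in CD15 negative cells (0 of 12 called). Their part in the values of the 9 genes was not tested.

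The rest of the neutrophil programme was read from 7 further lists with 54 genes, of which 43 were on the array. Of these 43, 30 had a mean level below the median of all probe sets. In the CD15 comparison of conventional tumours 1 of 43 was called, beside 3.46% of all probe sets. It was Prtn3 (proteinase 3, a primary granule protease), lower in CD15 positive cells at -0.73 ± 0.17 (limma adjusted p = 0.016), with signals of 3.56 to 37.2 in CD15 positive and 33.2 to 83.9 in CD15 negative cells. The other primary granule genes did not pass: Mpo (myeloperoxidase) was at -0.25 and never above 36.7 in signal, Elane (neutrophil elastase) at -0.23 and never above 24.0, Ctsg (cathepsin G) at 0.06 and Ms4a3 at 0.03. In the CD15 comparison of Math1-GFP tumours and in the interaction, 0 of 43 passed. At an unadjusted p under 0.05 there were 4 and 2 of 43, beside 6.24% and 2.67% of all probe sets. In CD15 positive cells, Mmp8 (neutrophil collagenase) was higher for Math1-GFP than for conventional tumours, at 0.31 (limma adjusted p = 0.029), with no signal above 15.3. In CD15 positive cells 1 of 43 was thus called, beside 16.1% of all probe sets. In CD15 negative cells 4 of 43 were called, beside 14.6% of all, and were lower in Math1-GFP than in conventional tumours: Alox5ap (leukotriene synthesis) at -1.21, Cyba (an NADPH oxidase subunit) at -1.20, Prtn3 at -0.60 and Elane at -0.39, with limma adjusted p-values of 0.019 to 0.024.

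One array carried most of the high values. Conventional CD15 negative array 5 had the highest signal of the 21 for 7 of the 9 genes (all but Lcn2 and Camp). It was also highest for 24 of the 43 other neutrophil genes (55.8%), beside 12.5% of all 18193 genes. That 12.5% covers genes of every brightness, while 30 of the 43 had a mean level below the median of all probe sets. The median signal of this array, 32.7, was also the highest of the 21, and its Ngp signal of 31.85 lay below that median. There S100a9 stood at the 93.5th percentile of the array, S100a8 at the 90.4th and Csf3r at the 86.1st, but Ngp only at the 49.5th and Camp at the 38.6th. The same array had the highest signals of the cytokine Il1b (1041), the Cxcr2 ligand Cxcl2 (829.3), the lectin receptor Clec4d (208.7), the oxidase subunit Ncf4 (202.2) and the decoy receptor Il1r2 (106.5). It also had the highest signals of the monocyte genes Plac8 (247.0) and Ccr2 (75.4) and of the lymphocyte genes Cd3d (71.1) and Nkg7 (48.4). The monocyte genes Fn1 (170.6 here) and Ms4a6c (103.7) were highest on other arrays. So were the lymphocyte genes Cd3e (11.2 here), Cd79a (41.0) and Ms4a1 (17.9). So were the oxidase subunits Cyba (249.4 here) and Cybb (99.4), and the Cxcr2 ligand Cxcl1 (77.6). The primary granule genes Ctsg and Ms4a3, at 1.04 and 1.61 here, were at the lowest of their group. The NADPH oxidase list mean was 7.71 on conventional CD15 positive array 4 and 7.64 here. The primary granule list mean was 5.69 here, in a range of 5.56 to 5.79 over the conventional CD15 negative arrays. The monocyte list mean was 7.40 there, in a range of 5.75 to 7.40 over the CD15 negative conventional arrays, and the lymphocyte list mean was 6.04, in a range of 5.10 to 6.04. The erythroid list, with 5 of 10 genes on the array, had a mean of 5.69 there, in a range of 5.33 to 5.69, with Hba-a2 at 63.8 and Hbb-b2 at 63.6, but Hba-a1 at 1.24, Slc4a1 at 3.76 and Alas2 at 1.11. What these genes contribute to the high values of the 9 was not tested.

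Microglia and macrophage genes were highest on other arrays, but were not confined to them. All 12 genes of that list were on the array, and 0 of 12 passed in either CD15 comparison. The list mean was 6.45 to 9.70 in conventional CD15 positive cells, against 5.88 to 7.95 in conventional CD15 negative cells. In Math1-GFP tumours it was 5.99 to 7.28 in CD15 positive cells, against 5.67 to 6.33 in CD15 negative cells. Its 2 highest arrays were conventional CD15 positive 4 (9.70) and 2 (9.31), where C1qa reached 2576 on array 4, and S100a9 was at 4.05 and 5.35 there. S100a8 was at 22.01 and 3.66. Csf3r differed from the calprotectin pair in this, at 84.6 and 52.0 on those arrays. Of the 6 arrays where the calprotectin pair passed 50, conventional CD15 positive 5 had a microglia list mean of 8.26. Conventional CD15 negative 5, 4 and 3 had 7.95, 7.89 and 6.32. Math1-GFP CD15 positive 1 had 7.28 and Math1-GFP CD15 negative 2 had 5.89.

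**Figure D4:**
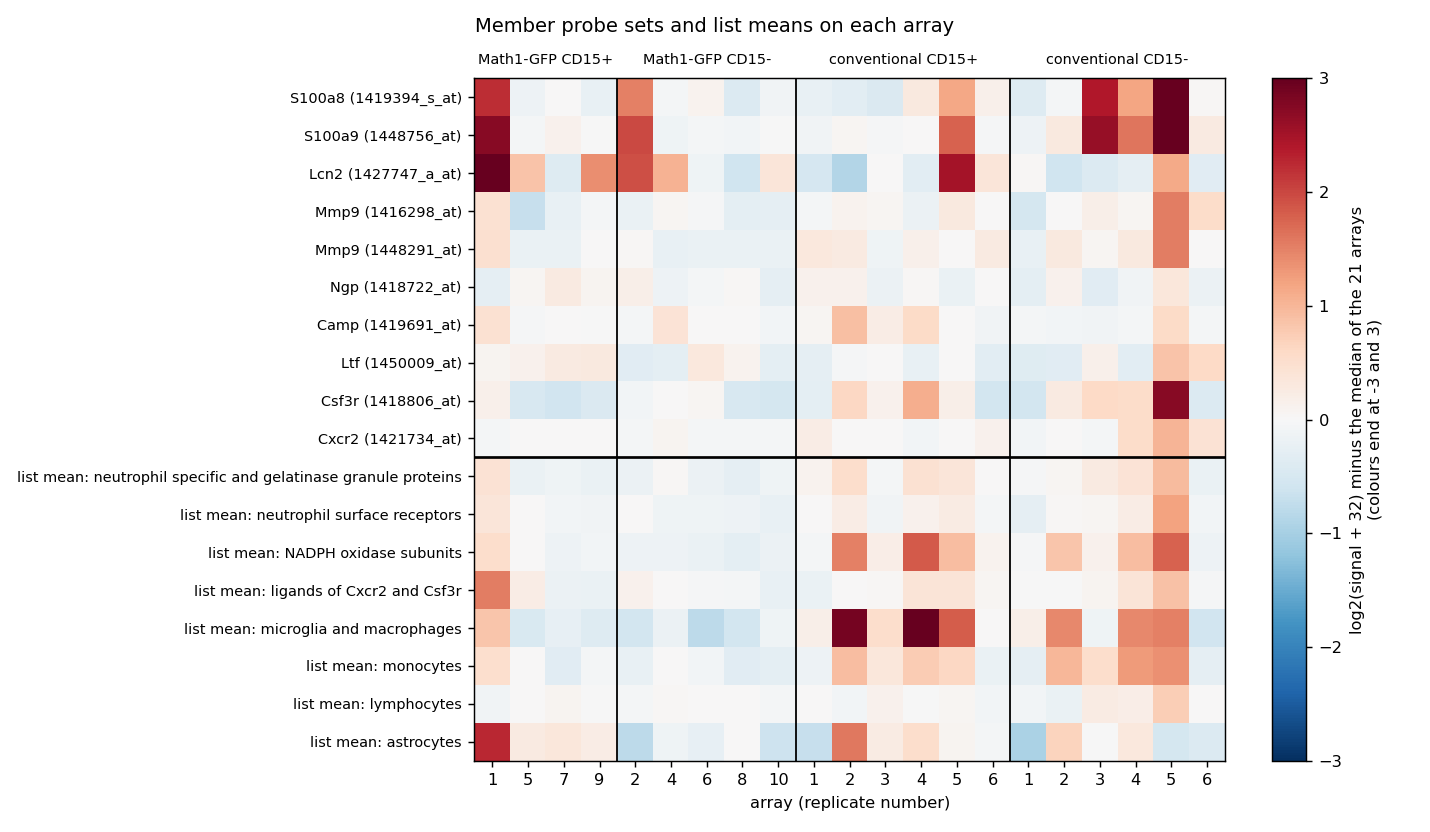
Log2(signal + 32) of the 10 probe sets (top) and the means of 8 lists (bottom) on each array, minus the median of the 21 arrays, with the groups in blocks and arrays in columns. Conventional CD15 negative array 5 is dark red for S100a8, S100a9 and Csf3r, Math1-GFP CD15 positive array 1 for Lcn2, and conventional CD15 positive arrays 2 and 4 for the microglia list. S100a8 and S100a9 are also red on Math1-GFP CD15 positive array 1 and conventional CD15 negative array 3, and Lcn2 on conventional CD15 positive array 5.

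Math1-GFP CD15 positive array 1, with Lcn2 at 4067, also had S100a8 at 173.2 and S100a9 at 208.1. Of the other neutrophil lists, the means of the surface receptors (5.94) and of the other cytosol and secreted genes (6.13) were the second highest of the 21 arrays there, and that of the ligands of Cxcr2 and Csf3r (7.18) was the highest. Il1b was at 144.5, Cxcl2 at 444.8 and the chemokine Ccl6 at 129.6, while Mpo, Elane and Cxcr2 were at 19.45, 4.51 and 1.45. The astrocyte list mean was 9.53 there, the highest of the 21 arrays, in a range of 7.49 to 9.53 in its group, against 6.48 to 7.26 in Math1-GFP CD15 negative cells. All 5 astrocyte genes were on the array, and 0 of 5 passed in either CD15 comparison. Aqp4 (a water channel) reached 679.5, Slc1a3 (a glutamate transporter) 812.9 and Aldoc (aldolase C) 871.8 on this array, the highest value of each. The other astrocyte genes were highest elsewhere. Gfap was at 1155 here and at 2107 on conventional CD15 negative array 2. S100b was at 307.1 here and at 620.6 on Math1-GFP CD15 positive array 7. The Cxcr2 ligands Cxcl5 (527.5) and Cxcl1 (401.6) were also highest there. The part of these genes in the Lcn2 value was not tested. Conventional CD15 positive array 2, second for the astrocyte list at 8.84, had the lowest Lcn2 signal of all, 0.80.

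**Figure D5:**
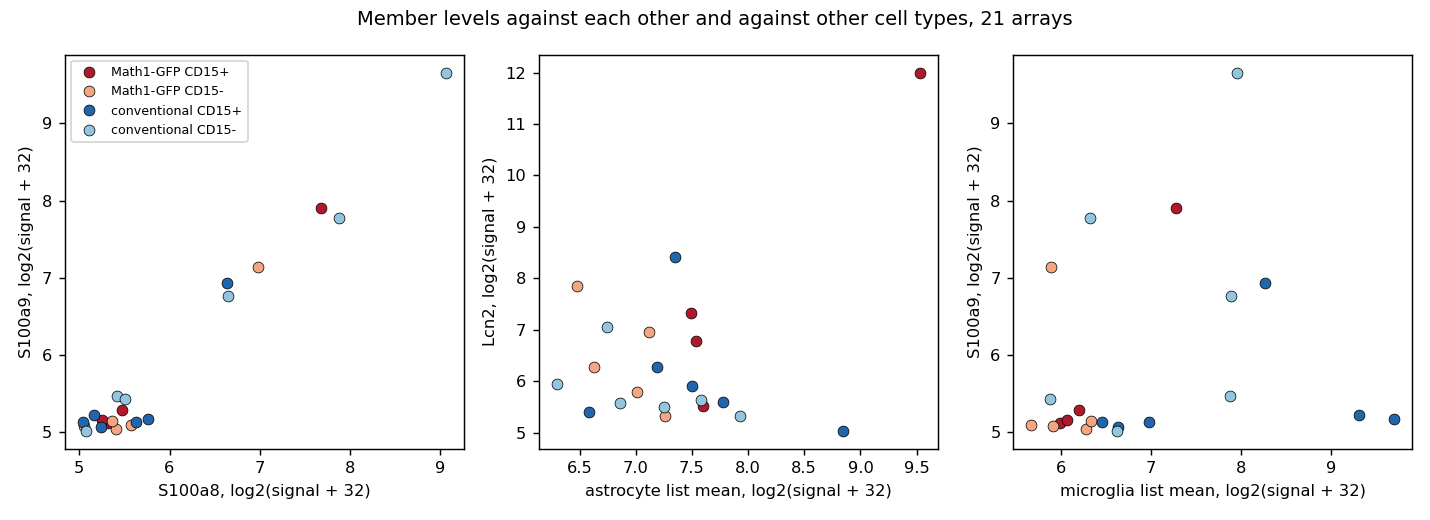
Log2(signal + 32) of S100a9 against S100a8 (left), Lcn2 against the astrocyte list mean (middle) and S100a9 against the microglia list mean (right), 1 point per array, coloured by group. The arrays high for S100a8 are the ones high for S100a9, Math1-GFP CD15 positive array 1 alone is high for both Lcn2 and the astrocyte list, and the 2 arrays highest for the microglia list are low for S100a9.

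The mean log2 level of the 9 genes, each by its brighter probe set, was 5.83 ± 0.66 in Math1-GFP CD15 positive (n = 4) and 5.56 ± 0.29 in Math1-GFP CD15 negative cells (n = 5), against 5.60 ± 0.27 in conventional CD15 positive (n = 6) and 5.91 ± 0.74 in conventional CD15 negative cells (n = 6; SD). The group with the highest single array had the highest mean. The 4 highest arrays were conventional CD15 negative 5 (7.30), Math1-GFP CD15 positive 1 (6.81), conventional CD15 positive 5 (6.13) and conventional CD15 negative 3 (6.05), and Math1-GFP CD15 negative 2 followed (6.03). Over the 21 arrays, which share the scaling and the probe background, the genes whose deviations from the group means were most like that mean were Igkv9-120 (r = 0.91), Tnfaip2 and Il1b (0.89), Tgfbi and Cxcl2 (0.88), and Ccrl2, Ntrk2, Csf2rb, Srgn and S100a4 (0.87). They were taken from 23205 probe sets above the 40th percentile. Without conventional CD15 negative array 5 their r was 0.78 to 0.86. Among the 9 genes, Ngp did not follow S100a8 over the same 21 arrays (r = 0.03 on levels), and the 2 Mmp9 probe sets followed each other (r = 0.82).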

How the data were processed

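RNA of 21 sorted samples had been hybridised to 1 array each. The deposited table holds linear intensities per probe set (0.0247 to 55079). The software by which the authors made these intensities was not given in the sources used here. Each array has a mean of 150 after trimming 2% at both ends, and distributions were not made equal. The intensities were used as deposited, as log2(signal + 32). Of 45101 probe sets, 64 controls, 932 with several symbols and 9211 with none were left out, and 34945 were fitted with no filter. Names came from the platform annotation. Groups followed the titles.

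limma 3.58.1 in R 4.3.3 (eBayes with trend) fitted 4 group means to all 21 arrays (17 residual degrees of freedom), after a test on simulated data. P-values are two-sided with Benjamini-Hochberg adjustment over all probe sets, threshold 0.05. The members, the 14 lists and the tests were chosen with earlier results of these data known. A further list of reactive astrocyte genes was chosen after seeing values. All 9 genes, the brightest genes of the lists (up to 4 each), those that passed and the 10 genes most like the members' mean were to be named; others named for their place on an array (Nkg7, Cd3d, Ccr2, Elane, Ctsg, Mmp8, Clec4d, Cxcl5, Aqp4, Aldoc, Hbb-b2, Hba-a1, Slc4a1, Alas2, Atoh1) were chosen after their values were seen where the rule does not cover them. A gene's list value is that of its brightest probe set. Same-numbered conventional arrays deviated together (r = 0.46 to 0.65 in 5 pairs, over probe sets), so the numbers were taken to pair samples. For arrays of different numbers r was -0.45 to 0.41. The 2 unnumbered arrays had r = 0.60 with each other, but were left out of the pair counts and the replicate block. Alternatives were quantile normalization, a smaller (1) and a larger pseudocount, a filter at the 40th percentile, and that filter with only the brightest probe set of each gene. Others were no trend, 2 groups alone, the replicate block and subsets of arrays. The number of arrays limits the precision. Promoter windows are RefSeq's (GRCm38.p6), for 8 of the 9 genes.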

Additional observations from a re-analysis of the deposited data

Results flagged for a closer look

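Among 44 tests of the highest or lowest array of a group, 16 found an array apart from the others of its group. Chance gives about 5% if values are normally distributed. Dim values are squeezed towards the floor of this scale, so that rate need not hold here. The probe sets share arrays, so the 16 are not independent. All were high arrays, and the values are log2(signal + 32). Math1-GFP CD15 positive array 1 stood apart for S100a8 (7.68), S100a9 (7.91), Camp (5.58) and the mean of the 9 genes (6.81). Math1-GFP CD15 negative array 2 stood apart for S100a8 (6.98), S100a9 (7.14) and the dimmer Mmp9 probe set (5.31). Math1-GFP CD15 negative array 4 did so for Camp (5.54) and Cxcr2 (5.21), at signals of 14.5 and 5.015 that are near the background of dim probe sets. Conventional CD15 positive array 5 stood apart for S100a9 (6.94), Lcn2 (8.41) and the mean of the 9 genes (6.13). Conventional CD15 negative array 5 stood apart for Lcn2 (7.06), the dimmer Mmp9 probe set (6.81), Camp (5.70) and Csf3r (8.50). The Camp values of 5.58 and 5.70 (signals of 15.7 and 19.9) and the Mmp9 value of 5.31 (7.80) are likewise near background. Lcn2 on Math1-GFP CD15 positive array 1, at a signal of 4067, was not past the limit for a group of 4.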

How the results depend on the processing

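In both CD15 comparisons and the interaction, 0 of the 10 probe sets passed under every alternative run. The replicate block changed no call of the 9 genes (S100a9 -1.50, adjusted p = 0.14), and called 1585 probe sets in all. Its unadjusted limma p was under 0.05 for 3 of 10 probe sets in conventional tumours, beside 6420 of all 34945. In the interaction this held for 3 of 10, beside 1812 of 34945. Between models, in CD15 negative cells 2 passed with conventional arrays 2 to 5 only (Csf3r -1.24, adjusted p = 0.023, and the dimmer Mmp9 probe set -0.71, adjusted p = 0.031). Leaving out single arrays gave 0 to 1 there (Cxcr2 -0.42 without conventional CD15 negative array 1 or 3, adjusted p = 0.042 and 0.049), and 0 to 1 in CD15 positive cells (Lcn2 0.43 to 2.59, the highest without Math1-GFP CD15 positive array 7, adjusted p = 0.046, and the lowest without array 1). The causes were not tested.

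With conventional arrays 1 and 6 only, CD15 differences in conventional tumours turned to 0.14 for S100a8, 0.40 for the dimmer Mmp9 probe set and 0.05 for Csf3r, and model differences in CD15 negative cells to 0.38, 0.27 and 0.27 for S100a8, S100a9 and Csf3r. Without conventional CD15 negative array 5 and Math1-GFP CD15 positive array 1 (chosen after seeing the data), the dimmer Mmp9 probe set was at 0.06 and Csf3r at 0.10 in conventional tumours, S100a8 at -0.33 and S100a9 at -0.31 in Math1-GFP tumours, and the Lcn2 interaction at -0.41. Without Math1-GFP arrays 1 and 2, S100a8 was at -4.8e-04 in Math1-GFP tumours. Leaving out single arrays gave ranges of -0.19 to 0.51 (Lcn2), -0.29 to 0.06 (dimmer Mmp9 probe set) and -0.56 to 0.10 (Csf3r) in conventional tumours, -0.33 to 0.58 (S100a8) and -0.31 to 0.78 (S100a9) in Math1-GFP tumours, and -0.16 to 1.99 for the Lcn2 interaction.

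Over all probe sets, the 1210 calls of the conventional CD15 comparison became 760 with the 2 groups alone, 0 with conventional arrays 1 and 6 only (limma, 2827 at an unadjusted p under 0.05), 730 without the 2 arrays named above, and 662 to 1282 without single arrays (662 without CD15 negative array 5, 789 without CD15 positive array 4). The 0 calls in Math1-GFP tumours became 4 with quantile normalization or the larger pseudocount. They became 2 with the filter, and 9 with the filter and the brightest probe set of each gene. They were 3 with the 2 groups alone, 2 without the 2 arrays, and 0 to 2 without single arrays (2 without CD15 positive array 1). The model counts of 5618 and 5086 became 2864 and 2316 with the filter and the brightest probe set of each gene, where 12367 were tested. They were 2187 and 1934 with conventional arrays 1 and 6 only. Quantile normalization gave 2455 higher and 2341 lower model calls in CD15 positive cells (3559 and 2059 as reported), and 2604 and 2028 in CD15 negative cells (3244 and 1842). The filter left 6 of the 10 probe sets. Dim probe sets lie near background, where a change cannot be seen.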

Other observations

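Several reactive astrocyte and acute phase genes were high on the Math1-GFP CD15 positive array that held the highest Lcn2 value. The list was chosen after that array was seen, so it is a description, and 11 of its 12 genes were on the array. S1pr3 (a sphingosine phosphate receptor) had a signal of 1110 there and a median of 31.2 over the 21 arrays. Cp (ceruloplasmin) had 827.8 against a median of 69.8. Osmr (the oncostatin M receptor) and Timp1 (a metalloproteinase inhibitor) were at 358.3 and 355.8, the highest of the 21 for each. The list mean was 9.08 on that array. It was 8.75 on conventional CD15 positive array 2, where Lcn2 was at 0.80.

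The lysozyme gene Lyz2, listed with the granule proteins and also made by macrophages, had its highest signal (5042) on conventional CD15 positive array 4, the array highest for the microglia list, and 1168 on conventional CD15 negative array 5.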
